A study of Macaca mulatta with 56 samples.

Results

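Gene expression was compared between the occipital cortex and the prefrontal cortex of the same rhesus macaques. The comparison took the 14 occipital and the 14 prefrontal libraries, 28 of the 56 libraries in the series, and paired them by animal over both hormone treatments. All animals were old females of 19.4 to 23.2 years. They were fed a Western-style diet freely, in which fat gave 36% and sugars 18.5% of the calories, and ovaries and uterus were removed about 6 weeks after it began. In 7 animals capsules then released estradiol (hormone therapy, HT; mean serum estradiol 82.1 pg/mL), and 7 animals received empty capsules (OvH; 6.6 pg/mL). All groups therefore share the surgery, the diet and old age, and young, intact or chow-fed animals were not analysed here. RNA came from about 30 mg of pulverised tissue per region, and the place within each cortex from which it was cut is not given in the sources used here.

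The neocortex is a sheet of 6 layers whose areas differ in thickness, cell density and wiring. In primates the occipital pole holds the primary visual cortex, known for an expanded, densely packed layer 4 that receives the visual thalamus. The prefrontal cortex is association cortex, with larger and more branched pyramidal neurons and wide connections to other cortical areas. Areal differences in the adult are known to involve few genes with an all-or-none pattern and many with graded levels.

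Values are read counts that the authors scaled so that the upper quartile of each library is equal, and they are called normalised values below. Differences are on the log2(value + 1) scale, occipital minus prefrontal cortex, which understates the change of genes near 0. A difference passed the test when its limma p, adjusted by the Benjamini-Hochberg method over all rows tested, was under 0.05. In bulk tissue, fewer cells of a type and less RNA per cell cannot be told apart. Gene names needed a check, because many identifiers of the table stand for one transcript in the amygdala columns and for another in the columns of hippocampus and cortex. A row was named when its mean log2 level over hippocampus, occipital and prefrontal cortex lay within 2 of its level in the amygdala. Of 17807 rows, 13520 met this limit, and 11796 of those had a symbol of their own. About 16.0% of names that met the limit were estimated to be wrong, so a single name is less certain than a count over a list.

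Mean depth was 63.4 ± 9.83 mega-reads in occipital cortex and 60.0 ± 15.6 mega-reads in prefrontal cortex (SD, n = 14 each; two-sided permutation p = 0.504). The first principal component carried 29.7% of the variance and separated all occipital from all prefrontal libraries. The second carried 15.3% and set 3 libraries apart, the prefrontal libraries of animals 32 and 40 and the occipital library of animal 40. Leaving both animals out gave 3643 rows higher and 5152 lower in occipital cortex, with 7706 of the calls made on all animals called again in the same direction. In the 52 gene and marker lists described below, leaving them out moved the number of members higher or lower by at most 2, and counts without them are given where a printed count moved by more than 1.5 times and for some further lists.

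**Figure D1:**
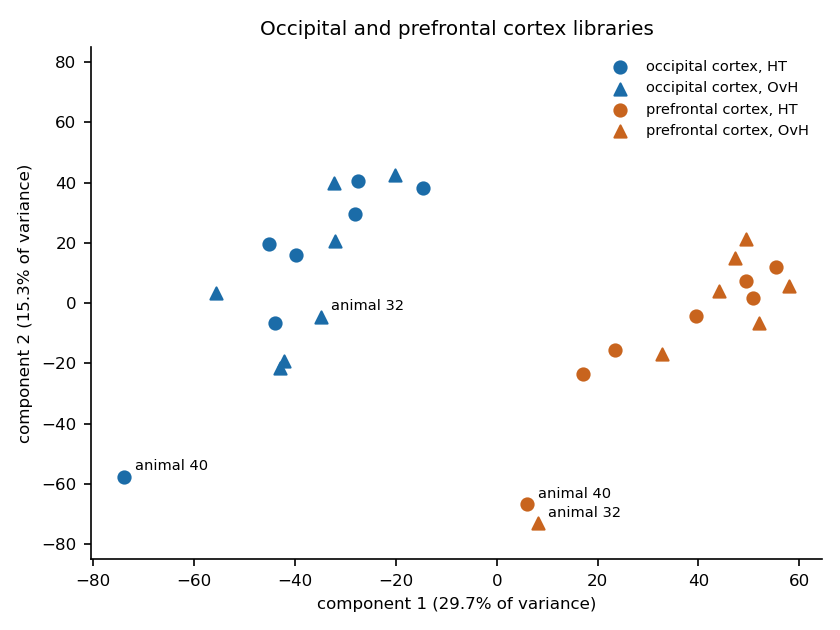
Scores of the 28 libraries on the first (x axis) and second (y axis) principal components of log2 values, in percent of variance as labelled. Blue points are occipital and orange points prefrontal libraries, with circles for HT and triangles for OvH animals; the regions separate along the x axis, and the 3 libraries of animals 32 and 40 named in the text lie lowest on the y axis.

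The regions differed in 8284 of 16259 rows tested. Of these, 3436 were higher in occipital cortex (21.1% of rows tested) and 4848 were lower (29.8%). Counts of list members given below stand beside these shares of 21.1% higher and 29.8% lower. Most differences were small, with a median of -0.06 over all rows. At least 2-fold differences were found in 246 rows higher (1.51%) and 1103 rows lower (6.78%) in occipital cortex. All 14 occipital libraries lay above all 14 prefrontal libraries in 200 rows (1.23%), and below all of them in 264 (1.62%). Among the 11759 rows that could be named, 140 were at least 2-fold higher and 691 at least 2-fold lower in occipital cortex. Large differences therefore lay more often on the prefrontal side, in named rows as in all rows.

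The genes that stood highest over prefrontal cortex included a receptor kinase, a glutamate transporter and several genes near 0 in prefrontal tissue. NOX3, an NADPH oxidase best known from the inner ear, had 117 to 358 (median 212) in occipital cortex and 0 to 16.1 (median 2.43) in prefrontal cortex. Its groups did not overlap, and the log2 difference was 5.89 (SE 0.261; limma adjusted p = 4.65e-12). MET, the receptor for hepatocyte growth factor, had 1594 to 3775 (median 2876) in occipital and 114 to 346 (median 172) in prefrontal cortex. It was 15.4-fold higher in occipital cortex (log2 3.95, SE 0.139; adjusted p = 3.19e-13), and higher in 14 of 14 animals. MAB21L1, a gene of eye and brain development, had 524 to 1281 (median 900) in occipital and 68.1 to 194 (median 98.0) in prefrontal cortex, an 8.58-fold difference (log2 3.10, SE 0.1). SLC17A6 encodes VGLUT2, the vesicular glutamate transporter typical of thalamic neurons and found in a minority of cortical cells. It had 2074 to 4890 (median 3545) in occipital cortex and 415 to 1044 (median 577) in prefrontal cortex, 5.53-fold higher (log2 2.47, SE 0.129; adjusted p = 4.63e-11).

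Other leading genes were spread over unrelated roles. The Ras-association gene RASSF6 differed by log2 3.5, the small muscle protein gene SMPX by 3.24, and the retinol-metabolising dehydrogenase gene SDR16C5 by 3.04. Lower in this order were the matrix-crosslinking enzyme gene LOXL2 (2.79), the polo-like kinase gene PLK5 (2.78), the DNA repair gene OGG1 (2.37; an uncertain name), the heparanase gene HPSE (2.33) and the synaptotagmin gene SYT6 (2.19). All 12 leading genes were higher in occipital cortex in 14 of 14 animals, and SYT6 alone had overlapping groups. SYT6 ranged from 294 to 2798 (median 1225) in occipital and from 174 to 363 (median 268) in prefrontal cortex.

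On the other side, the leading genes included a serotonin receptor gene, a neuronal adhesion gene and a regulator of Ras. HTR1A, the inhibitory serotonin 1A receptor, had 11.4 to 84.6 (median 36.3) in occipital cortex and 117 to 711 (median 439) in prefrontal cortex. It was 11.6-fold lower in occipital cortex (log2 -3.53, SE 0.258; adjusted p = 3.9e-09), with no overlap of the groups. AMIGO2, a neuronal cell adhesion gene, had 21.3 to 73.8 (median 36.2) in occipital and 289 to 604 (median 440) in prefrontal cortex, also an 11.6-fold difference (log2 -3.54, SE 0.135). The atypical kinase gene MAPK15 had the lowest difference of the 12 (-3.78), followed by STUM (-3.54, equal to AMIGO2 at this rounding). CARS2, a mitochondrial tRNA synthetase gene whose name here is uncertain, differed by -3.34, SEC16B of endoplasmic reticulum exit sites by -3.29, and the C2-domain gene C2CD4C by -3.19. RASAL1, which switches off Ras, differed by -2.83, the receptor-transport gene RTP1 by -2.81, the mucin gene MUC3A by -2.72 and the zinc finger gene TSHZ2 by -2.64. C2CD4C stood apart in animal 39 (-1.28, against -3.87 to -2.89 in the other HT animals) and MUC3A in animal 33 (-4.34, against -2.21 to -1.17 in the other OvH animals).

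Of the 24 leading genes, 9 lay within 1 log2 unit of their amygdala level, among them SMPX, MAB21L1, PLK5, HTR1A, RTP1, MUC3A, C2CD4C and TSHZ2. The other 15 met the limit of 2 with a wider gap, up to 1.76 in CARS2 and -1.76 in RASSF6. A gene that truly differs between regions also has such a gap, and a wrong name and a real regional difference cannot be told apart by it. OGG1 and CARS2 are used by most cell types, and their names are held the least certain of the 24, a judgement made after their values were seen. The row named OGG1 averaged 23240 in occipital and 4468 in prefrontal cortex, beside 2637 in hippocampus and 2503 in amygdala. The row named CARS2 averaged 45.1 in occipital and 529.5 in prefrontal cortex, beside 228 in hippocampus and 501 in amygdala.

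**Figure D2:**
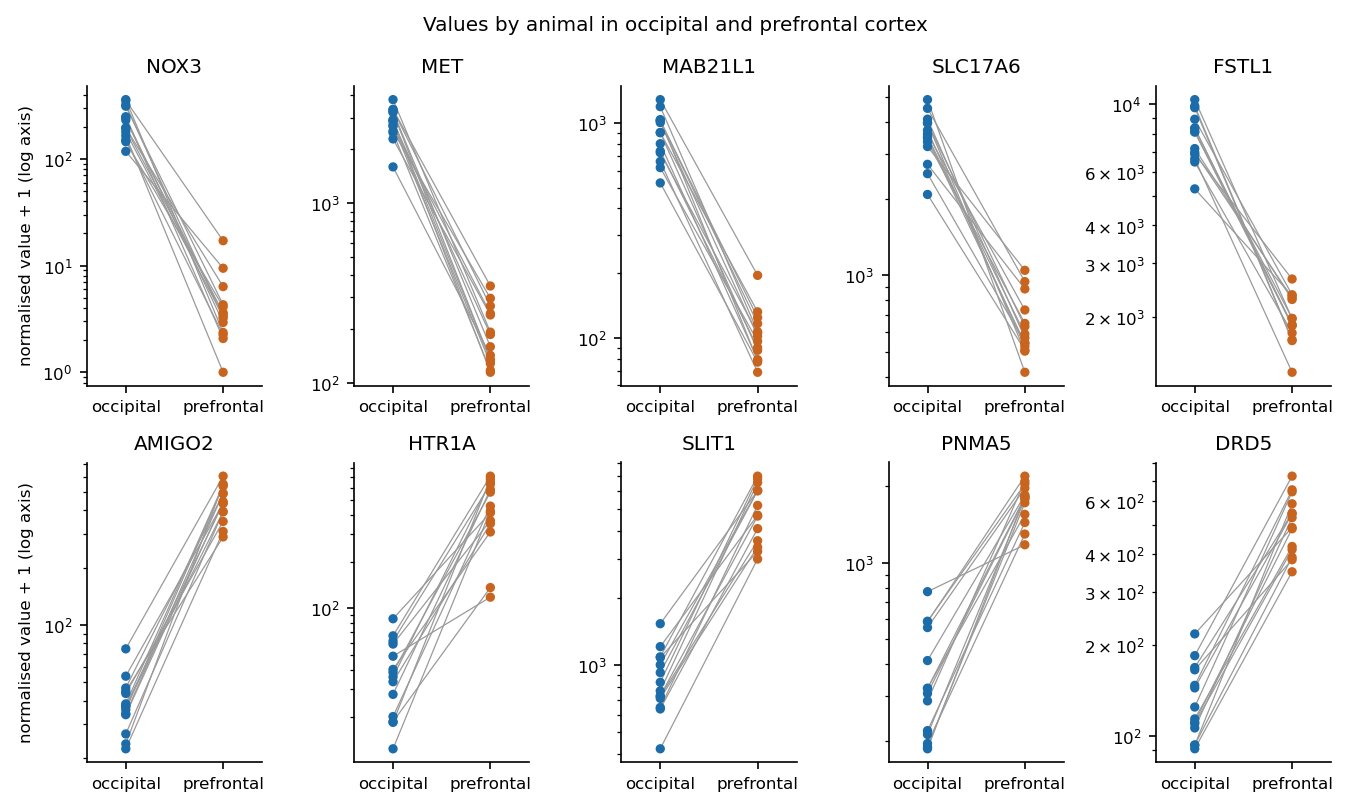
Normalised value + 1 (log axis, 1 panel per gene) in occipital cortex (left, blue) and prefrontal cortex (right, orange), with a grey line joining the 2 libraries of each of 14 animals. In the upper panels (NOX3, MET, MAB21L1, SLC17A6, FSTL1) every occipital value is above every prefrontal value, and in the lower panels (AMIGO2, HTR1A, SLIT1, PNMA5, DRD5) every occipital value is below.

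Genes known from earlier work as markers of macaque visual or association cortex were set beside the region labels. FSTL1 (also called occ1), a secreted follistatin-like protein known for its high level in primary visual cortex, had 5276 to 10370 (median 8121) in occipital and 1315 to 2666 (median 1930) in prefrontal cortex. It was 3.97-fold higher in occipital cortex (log2 1.99, SE 0.108; adjusted p = 7.24e-11), without overlap. HTR1B, the serotonin 1B receptor, had 62.1 to 611 (median 258) in occipital and 16.4 to 138 (median 106) in prefrontal cortex, 2.81-fold higher and higher in 13 of 14 animals. SPOCK2, a proteoglycan of the brain matrix, was 1.36-fold higher (log2 0.45, SE 0.137; adjusted p = 0.0106). It was higher in 11 animals and lower in 3, the lowest being animal 40 at -0.61. HTR2A differed by 0.20 (SE 0.176; adjusted p = 0.362) and the muscarinic receptor gene CHRM2 by 0.15 (SE 0.242; adjusted p = 0.631). So 3 of the 5 visual cortex genes that could be named were higher and 0 were lower, by limma, edgeR and DESeq2 and also at an unadjusted p under 0.05. Both association cortex genes that could be named were lower in occipital cortex. SLIT1, a secreted guidance cue, had 422 to 1533 (median 802) in occipital and 2986 to 7017 (median 4942) in prefrontal cortex (log2 -2.53, SE 0.114; adjusted p = 5.73e-12). PNMA5, a paraneoplastic antigen family gene, had 185 to 770 (median 313) in occipital and 1177 to 2191 (median 1807) in prefrontal cortex (log2 -2.39, SE 0.169; adjusted p = 2.41e-09). Neither pair of groups overlapped. The earlier work on these genes used macaque cortex, and their areal pattern was the reason for listing them. The lists were chosen with earlier results of these data known, so they are not an independent check of the labels.

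Markers of cortical layers did not shift as whole layers. Of 7 upper layer genes 1 was higher and 5 were lower in occipital cortex (median -0.87). CUX1, a transcription factor of upper layer neurons, was 1.88-fold higher (log2 0.91, SE 0.087), while its relative CUX2 differed by 0.15 (SE 0.153; adjusted p = 0.442). The synaptic adhesion gene MDGA1 had 145 to 376 (median 222) in occipital and 569 to 1121 (median 873) in prefrontal cortex (log2 -1.85, SE 0.102). RASGRF2, a Ras exchange factor, differed by -1.86 (SE 0.231) and was lower in 13 of 14 animals, with animal 32 at 0.40. WFS1 (-0.88), COL5A2 (-0.87) and the calcium buffer gene CALB1 (-0.56) were the other upper layer genes that were lower.

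Layer 4, the layer that is expanded in visual cortex, had a list in which no gene was called higher in occipital cortex by the paired fit over all animals. By limma 0 of 5 were higher and 2 were lower (median 0.06), and 0 were higher at an unadjusted p under 0.05 or by edgeR or DESeq2. RORB, the nuclear receptor that marks layer 4 neurons, had 552 to 3372 (median 1385) in occipital and 342 to 2377 (median 1672) in prefrontal cortex, a difference of 0.26 (SE 0.274; adjusted p = 0.446). The phospholipase gene PLCH1 differed by 0.24 and the potassium channel gene KCNH5 by 0.06, neither past the test. With the mean log2 level of the myelin markers as a covariate PLCH1 differed by 0.40 and passed (limma adjusted p = 0.012). It also passed without animal 33 (0.34, limma adjusted p = 0.0211). The netrin receptor gene UNC5D was lower (-1.02, SE 0.288; adjusted p = 0.00638). THSD7A was lower by a narrow margin (-0.55; adjusted p = 0.0415), and leaving out single animals took its adjusted p over 0.05 in 9 of 14 cases (up to 0.0907). KCNH5 stood apart in animal 37 (-1.38, against 0.10 to 0.94 in the other HT animals) and THSD7A in animal 32 (0.95, against -1.90 to -0.78 in the other OvH animals).

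Layer 5 genes were the most uniform of the layer lists: 6 of 7 were lower in occipital cortex and 1 was higher (median -1.28). VAT1L, found in large layer 5 projection neurons, had 2674 to 4670 (median 3889) in occipital and 6845 to 11400 (median 9314) in prefrontal cortex (log2 -1.28, SE 0.061; adjusted p = 1.17e-11). FEZF2, the transcription factor that specifies subcortically projecting neurons, had 572 to 994 (median 729) in occipital and 1063 to 2096 (median 1335) in prefrontal cortex (log2 -0.86, SE 0.097). Neither gene's groups overlapped. BCL11B, the transcription factor CTIP2 of the same neurons, differed by -1.76, the peptide gene ADCYAP1 (PACAP) by -1.91, the thyroid hormone binding protein gene CRYM by -1.02 and TSHZ2 by -2.64. PCP4, a calmodulin-binding peptide gene, went the other way, with 8698 to 24600 (median 13710) in occipital and 2791 to 8989 (median 3555) in prefrontal cortex (log2 1.94, SE 0.127; adjusted p = 9.13e-10). In layer 6, 2 of 7 genes were higher and 3 lower (median -0.26; 2 and 4 without animals 32 and 40). SYT6 (2.19) and the semaphorin gene SEMA3E (0.59) were higher, and NXPH4 (-0.96), the kappa opioid receptor gene OPRK1 (-0.80) and the relaxin receptor gene RXFP1 (-0.72) were lower. TLE4 differed by 0.05 and CCN2 by -0.26 (adjusted p = 0.0625), and CCN2 passed without animals 32 and 40 (-0.29; adjusted p = 0.041).

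**Figure D3:**
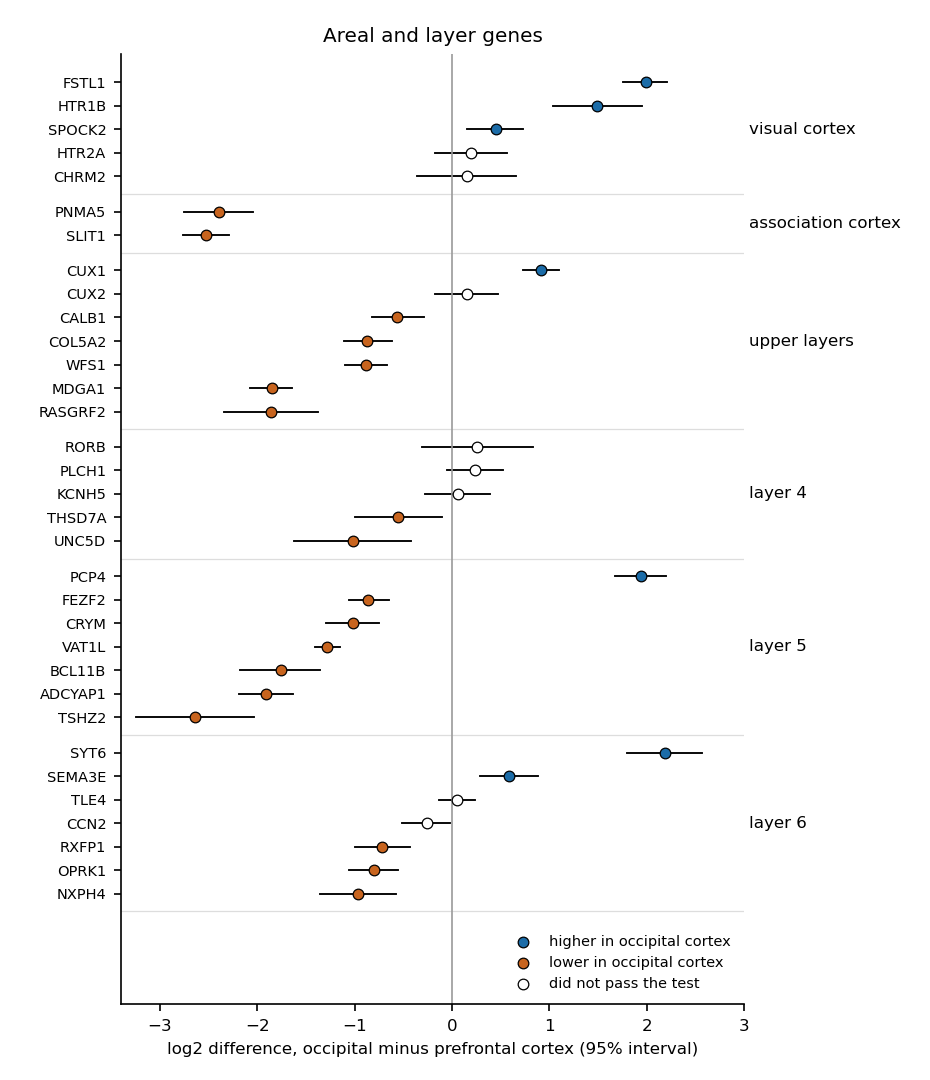
Log2 difference, occipital minus prefrontal cortex (x axis), with its 95% interval for each nameable gene of the areal and layer lists (y axis, grouped by list); blue and orange points passed the test and white points did not. Layer 5 genes other than PCP4 lie left of 0, while 3 of 5 layer 4 genes have intervals that cover 0.

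Transcription factors that form gradients across the developing cortex had 10 of 19 lower and 5 higher (median -0.22); edgeR called 8 lower and 5 higher, and DESeq2 9 lower and 6 higher. PAX6, high in the frontal part of the embryonic cortex in mice, had 691 to 1579 (median 1094) in occipital and 1681 to 2720 (median 1992) in prefrontal cortex (log2 -0.89, SE 0.094), without overlap. LMO4, a LIM-domain cofactor, was lower by log2 0.76 (adjusted p = 8.19e-08). BHLHE22 was higher (0.85, SE 0.142; adjusted p = 7.51e-05). LHX9 was higher too (1.53), at low values of 7.45 to 69.6 (median 25.3) in occipital and 0.938 to 19.1 (median 9.44) in prefrontal cortex.

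The retinoic acid pathway, which shapes prefrontal identity during development in primates, split. Of 15 genes 5 were higher and 6 lower in occipital cortex (median -0.14; 3 and 7 without animals 32 and 40). CBLN2, a synapse organiser with a retinoic acid responsive enhancer in primates, had 1393 to 3998 (median 1925) in occipital and 4061 to 8235 (median 6647) in prefrontal cortex (log2 -1.78, SE 0.099; adjusted p = 9.57e-11). CYP26A1, the enzyme that degrades retinoic acid, had 14 to 70.7 (median 39.9) in occipital and 74.7 to 214 (median 134) in prefrontal cortex (log2 -1.70, SE 0.136). Neither gene's groups overlapped. The receptor gene RXRB (0.57) and the retinaldehyde reductase gene DHRS3 (0.34) were higher.

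Genes that guide axons had shares near or somewhat above those over all rows (21.1% higher and 29.8% lower). Of 52 axon guidance genes 12 were higher and 21 lower (median -0.22; 14 and 21 without animals 32 and 40). Besides SLIT1, the semaphorin receptor gene PLXNA1 was lower without overlap, with 1092 to 3051 (median 2233) in occipital and 5435 to 10290 (median 7823) in prefrontal cortex (log2 -1.85, SE 0.116). Higher were SEMA3F, a repulsive semaphorin (1.39, with animal 40 at -0.32 against 1.5 to 2.15 in the other HT animals), and the ephrin gene EFNB2 (0.76, SE 0.079). Of 20 cadherins and protocadherins 12 were lower and 0 higher (median -0.44), with 0 higher also at an unadjusted p under 0.05 and by edgeR and DESeq2. PCDH19, a protocadherin linked to epilepsy in girls, had 132 to 681 (median 277) in occipital and 239 to 2668 (median 1818) in prefrontal cortex (log2 -2.16, SE 0.261). CDH4, R-cadherin, differed by -0.97 (SE 0.119) and was lower in 14 of 14 animals.

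Receptors for the diffuse modulatory transmitters were more often lower than higher in occipital cortex. Rows in general leaned the same way, with 29.8% lower and 21.1% higher. Serotonin receptors had 5 of 10 lower and 2 higher (median -0.77). The channel-forming receptor gene HTR3A had 2.28 to 624 (median 79.8) in occipital and 115 to 1554 (median 268) in prefrontal cortex and was lower in 14 of 14 animals (log2 -2.48, SE 0.293). HTR1E was lower without overlap in a list led by HTR1A (-1.27, SE 0.112), while HTR5A was modestly higher (0.49, SE 0.077). Of 9 dopamine and adrenergic receptors 5 were lower and 0 higher (median -0.36), and the count of 0 was the same by edgeR, by DESeq2 and without adjustment. DRD5, a D1-type dopamine receptor, had 90.0 to 217 (median 119) in occipital and 349 to 724 (median 508) in prefrontal cortex (log2 -1.95, SE 0.114; adjusted p = 2.02e-10). ADRA2C, an alpha-2 adrenergic receptor, had 38.1 to 103 (median 66.6) in occipital and 162 to 297 (median 208) in prefrontal cortex (log2 -1.63, SE 0.145), with animal 33 at -0.70, the smallest difference among OvH animals. Of 9 acetylcholine receptors 2 were higher and 5 lower (median -0.41). The nicotinic subunit gene CHRNA3 was higher (1.90, SE 0.248) and CHRNA4 lower (-1.74, SE 0.201). The muscarinic gene CHRM1 was slightly higher (0.34) and CHRM3 lower (-1.13, SE 0.226).

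Glutamate receptors leaned the same way. Of 17 ionotropic subunits 11 were lower and 1 was higher (median -0.45). The kainate subunit gene GRIK2 had 764 to 1518 (median 1054) in occipital and 1630 to 2478 (median 2130) in prefrontal cortex (log2 -0.93, SE 0.098), without overlap. GRIN3A, an NMDA receptor subunit that limits calcium entry, differed by -1.44 (SE 0.206), and the AMPA subunit gene GRIA1 was higher (0.41, SE 0.084). Of 14 metabotropic receptors and postsynaptic scaffolds 11 were lower and 0 higher (median -0.78); by edgeR and by DESeq2 10 were lower and 0 higher, and 0 were higher without adjustment. GRM2, a presynaptic metabotropic receptor, had 457 to 1198 (median 827) in occipital and 975 to 3010 (median 2149) in prefrontal cortex (log2 -1.37, SE 0.127). DLGAP2, a scaffold of the postsynaptic density, differed by -1.40 (SE 0.160).

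GABA-A receptor subunits differed in opposite directions. GABRA5, the alpha-5 subunit of extrasynaptic receptors, had 1407 to 2331 (median 1814) in occipital and 4713 to 7104 (median 6306) in prefrontal cortex. It was 3.41-fold lower (log2 -1.77, SE 0.077; adjusted p = 4.22e-12), without overlap. GABRA3 had 569 to 1626 (median 1045) in occipital and 2438 to 3639 (median 2989) in prefrontal cortex (log2 -1.57, SE 0.101), also without overlap. GABRD, the delta subunit of another extrasynaptic receptor, was higher, with 10110 to 23090 (median 17330) in occipital and 5118 to 12390 (median 9244) in prefrontal cortex (log2 0.96, SE 0.143). In all, 3 of 11 GABA receptor genes were higher and 5 lower (median -0.31), and 2 were higher without animals 32 and 40.

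Of 13 genes of thick, fast-conducting axons 8 were higher and 2 lower in occipital cortex (median 0.46; 7 and 2 without animals 32 and 40). VAMP1, a vesicle fusion protein of fast synapses, had 8810 to 31010 (median 13020) in occipital and 3539 to 10390 (median 5439) in prefrontal cortex (log2 1.29, SE 0.107; adjusted p = 2.05e-08). KCNC1, the fast potassium channel Kv3.1, had 5710 to 11730 (median 8609) in occipital and 2260 to 5525 (median 3889) in prefrontal cortex (log2 1.13, SE 0.141), without overlap. Lower were KCNA1 (-1.30) and the sodium channel gene SCN8A (-0.72; adjusted p = 0.0356). SCN8A lost its call in 7 of the 14 fits that left out 1 animal (adjusted p up to 0.0783). Markers of parvalbumin interneurons, which use many of these genes, had a summed normalised value of 8056 to 12240 (median 9221) in occipital and 6652 to 8993 (median 7523) in prefrontal cortex, higher in 13 of 14 animals. Their part in the result was not tested.

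Ion channel genes were more often lower than higher, beside 29.8% lower and 21.1% higher over all rows tested. Of 51 potassium channel subunits 4 were higher and 25 lower (median -0.33; 6 and 26 without animals 32 and 40). KCNMB4, a subunit of calcium-activated potassium channels, had 2194 to 3470 (median 2673) in occipital and 4582 to 7573 (median 5299) in prefrontal cortex (log2 -1.02, SE 0.074; adjusted p = 3.21e-09). KCNIP2, a partner of Kv4 channels, was higher (0.93, SE 0.121). Among sodium, calcium and HCN channels 3 of 25 were higher and 14 lower (median -0.53). The sodium channel genes SCN3B (-1.88, SE 0.136) and SCN9A (-2.03, SE 0.152) were lower without overlap, and SCN4B (0.81, SE 0.115) was higher in 14 of 14 animals.

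Presynaptic release genes were also more often lower, with 4 of 33 higher and 15 lower (median -0.28). The shares over all rows were 21.1% higher and 29.8% lower. SYT2, the fast calcium sensor of release, was higher in 14 of 14 animals (1.29, SE 0.204), and VAMP1 was the other gene of this list at least 2-fold higher. At least 2-fold lower were 5 genes of the list. Over all rows 1.51% were at least 2-fold higher and 6.78% at least 2-fold lower. SYN2 had 6564 to 12980 (median 9611) in occipital and 10270 to 25470 (median 18150) in prefrontal cortex (log2 -0.93, SE 0.088). CPLX3, a complexin of deep layer and retinal synapses, was lower without overlap (-1.14, SE 0.120). Among 17 neuropeptide precursor genes 5 were higher and 3 lower (median -0.03; 5 and 5 without animals 32 and 40), with TAC1 higher (0.65) and SST lower (-0.61). Immediate early genes, which neuronal activity induces, had 3 of 23 higher and 6 lower (median -0.09). Both of their shares lay below those over all rows. NR4A3 was lower in 14 of 14 animals (-1.13, SE 0.105; animal 43 at -2.0 against -1.23 to -0.78 in the other OvH animals), as was JUN (-0.71, SE 0.098), and GADD45B was higher in 14 of 14 (0.97, SE 0.101).

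Genes of energy metabolism lay on the occipital side. Of 53 nuclear-encoded respiratory chain subunits 25 were higher and 0 lower in occipital cortex, with a median of 0.25 against -0.06 over all rows; 0 were lower by edgeR, by DESeq2 or without adjustment. ATP5F1A, a subunit of ATP synthase, had 93890 to 126800 (median 106000) in occipital and 49080 to 75910 (median 61110) in prefrontal cortex. It was 1.71-fold higher (log2 0.77, SE 0.069; adjusted p = 5.1e-08), without overlap. UQCRC1, a core subunit of complex III, had 23450 to 37810 (median 30370) in occipital and 12920 to 22850 (median 17480) in prefrontal cortex (log2 0.83, SE 0.091). In glycolysis and its transporters 6 of 16 genes were higher and 3 lower (median 0.12). PGK1, an ATP-forming enzyme of glycolysis, was higher in 14 of 14 animals (0.74, SE 0.094), as was the glucose transporter gene SLC2A1 (0.60, SE 0.094; animal 30 at 1.42, above 0.26 to 0.74 in the other OvH animals). The phosphofructokinase genes PFKL (-0.59) and PFKFB2 (-0.54) were lower.

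Chaperone genes also leaned to the occipital side. Of 22 heat shock genes 13 were higher and 0 lower (median 0.26); edgeR and DESeq2 each called 16 higher and 0 lower, and 0 were lower without adjustment. HSPA5, the chaperone BiP of the endoplasmic reticulum, had 14680 to 28080 (median 22150) in occipital and 7996 to 17590 (median 12290) in prefrontal cortex (log2 0.85, SE 0.092). HSPA8, the constitutive chaperone of the cytosol, was higher in 14 of 14 animals (0.74, SE 0.082). Cytosolic ribosomal proteins differed little: limma called 0 of 51 higher and 2 lower (median -0.04), with 0 higher and 5 lower at an unadjusted p under 0.05 and 0 and 1 called without animals 32 and 40. The tools edgeR and DESeq2 each called 1 higher, with 1 lower by edgeR and 2 by DESeq2.

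Extracellular matrix genes differed in both directions. Of 10 perineuronal net genes 2 were higher and 4 lower (median -0.15). ACAN, aggrecan, the core proteoglycan of the nets around parvalbumin cells, had 200 to 904 (median 484) in occipital and 137 to 272 (median 173) in prefrontal cortex (log2 1.27, SE 0.136; adjusted p = 5.09e-07). TNC (-1.07, SE 0.162) and NCAN (-0.74, SE 0.117), of the same list, were lower. Of 27 collagen chains 1 was higher and 18 were lower (median -0.62). COL11A1 (-1.37, SE 0.106) and COL5A1 (-1.44, SE 0.124) were lower in 14 of 14 animals, and COL26A1 was higher (0.72). Meningeal fibroblast markers, which share COL1A2 with this list, had a summed value of 3665 to 16190 (median 5559) in occipital and 5233 to 10340 (median 6333) in prefrontal cortex, higher in occipital cortex in 5 of 14 animals; their part was not tested.

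Among hormone and growth factor genes, the steroid list gave few calls and the neurotrophin list more. ESR2, estrogen receptor beta, had 3.51 to 28.5 (median 12.3) in occipital and 12.6 to 63.1 (median 32.4) in prefrontal cortex, low in both and lower in occipital cortex in 14 of 14 animals (log2 -1.34, SE 0.193; adjusted p = 1.62e-05). ESR1, PGR and GPER1 did not meet the name limit and are not reported. In the list of steroid receptors and estrogen metabolism 3 of 15 genes were higher and 2 lower (median -0.03; 3 and 4 without animals 32 and 40). Higher members included the orphan receptor genes ESRRA (0.84, SE 0.092) and ESRRG (0.96, SE 0.216). BDNF, the neurotrophin, had 203 to 966 (median 294) in occipital and 360 to 990 (median 628) in prefrontal cortex (log2 -0.88, SE 0.149; animal 37 at 0.57). Its receptor gene NTRK2 was lower as well (-0.89, SE 0.199), while the GDNF co-receptor kinase gene RET was 2.0-fold higher. NTRK2 was higher in occipital cortex in animal 32 (8383 against 4392) and animal 38 (15100 against 14260). Neurotrophins and receptors had 2 of 11 higher and 5 lower.

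Clock genes differed in both directions, 6 of 21 higher and 5 lower (median 0.15; 8 and 6 without animals 32 and 40). ARNTL, which encodes BMAL1, had 4685 to 7140 (median 5829) in occipital and 2477 to 3565 (median 3258) in prefrontal cortex (log2 0.85, SE 0.065; adjusted p = 6.75e-09), without overlap. NFIL3, a repressor in the clock's output, was also higher without overlap (0.98, SE 0.095). NPAS2, a partner of BMAL1, was lower in 14 of 14 animals (-0.98, SE 0.089), and PER3 was lower (-0.73, SE 0.143). Cholesterol genes had 3 of 20 higher and 5 lower (median 0.08), among them INSIG1 higher (0.32) and the efflux transporter gene ABCA1 lower (-1.13). Interferon response genes had 6 of 27 higher and 5 lower (median 0.11), with IFI27 higher (0.60) and OAS3 lower without overlap (-0.75, SE 0.099). In none of these 3 lists did most members pass in 1 direction, and over all rows tested 21.1% were higher and 29.8% lower.

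Markers of cortex and of neighbouring tissues were also set beside the region labels. The cortical glutamate transporter gene SLC17A7 (VGLUT1) had 41570 to 81910 (median 59300) in occipital and 48240 to 106100 (median 82460) in prefrontal cortex (log2 -0.47, SE 0.109; animal 40 at -1.35). In its excitatory neuron list 3 of 6 were higher and 2 lower (median 0.22), with SLC17A6 among the higher. Of 5 cerebellar neuron markers 1 was higher and 4 were lower in occipital cortex (median -0.45). FAT2, a cerebellar granule cell gene, stayed at 21.0 or less in occipital and 82.4 or less in prefrontal cortex, and was lower in occipital cortex (-2.75). CA8 of the same list was higher (0.55), at 487 to 1467 in occipital and 313 to 670 in prefrontal cortex. TTR, the main choroid plexus transcript, had 78.3 to 3126 (median 408) in occipital and 34.4 to 615 (median 135) in prefrontal cortex, the highest of them in the occipital library of animal 40, while its hippocampal mean was 206100. The choroid plexus list had a summed value of 239 to 3374 in occipital and 199 to 822 in prefrontal cortex. TTR weighs heavily in this sum, with 3126 of the 3374 in the occipital library of animal 40. The list itself split, with 1 of 5 genes higher and 1 lower (median -0.25; 1 and 2 without animals 32 and 40). TTR was higher (log2 1.64, SE 0.483). CLIC6 was lower in 14 of 14 animals (log2 -2.21, SE 0.331), at low means of 3.475 in occipital and 18.58 in prefrontal cortex. Hemoglobin (HBA), from blood, was higher in occipital cortex (1.11; adjusted p = 0.00834), with animal 39 at 4.36 against -0.07 to 0.97 in the other HT animals.

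Among neurons, general markers split by gene. SNAP25, of the vesicle fusion machinery, was higher (0.43, SE 0.082), and so was ENO2 (0.43, SE 0.115; animal 40 at -0.33), while GAP43, a growth cone protein, had 12160 to 21950 (median 15280) in occipital and 28920 to 46960 (median 36890) in prefrontal cortex (log2 -1.16, SE 0.085). MAP2, of dendrites, had 5212 to 27730 (median 14200) in occipital and 6219 to 69220 (median 48200) in prefrontal cortex (log2 -1.44, SE 0.262). In the prefrontal libraries of animals 32 and 40 MAP2 was 6219 and 9431, below all other prefrontal libraries. MAP2 was not alone in this. HTR1A (117 and 135.1), UNC5D (106.5 and 104) and NTRK2 (4392 and 5296) were also lowest in the prefrontal libraries of these animals. SST (7444 and 8916) was highest there. In the pan-neuronal list 3 of 12 were higher and 2 lower (4 and 3 without these animals), and its summed value was higher in occipital cortex in 12 of 14 animals.

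Interneuron markers differed by class. Markers of VIP and CCK cells had 5 of 8 lower and 0 higher (median -0.71). By edgeR and by DESeq2 4 were lower and 0 higher, and 6 were lower and 0 higher at an unadjusted p under 0.05. The calcium buffer gene CALB2 had 756 to 1903 (median 1341) in occipital and 1562 to 4335 (median 3275) in prefrontal cortex (log2 -1.13, SE 0.118). HTR3A, described above with the serotonin receptors, belongs to the same cells. Somatostatin cell markers had 4 of 6 lower and 1 higher (median -0.50), and SST itself had 2529 to 4078 (median 2932) in occipital and 2259 to 8916 (median 5056) in prefrontal cortex. Of the 6 parvalbumin cell markers 2 were higher and 1 lower (median 0.15), with PVALB 1.24-fold higher (log2 0.31, SE 0.082; adjusted p = 0.00416). The vesicular GABA transporter gene SLC32A1 was higher (0.46, SE 0.110), and in its GABAergic list 4 of 9 were higher and 3 lower.

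In non-neuronal cells, 7 of 13 endothelial markers were higher and 0 lower (median 0.32), with 0 lower also by edgeR, DESeq2 and without adjustment. Their summed value was 15210 to 35710 (median 22460) in occipital and 11760 to 20100 (median 17680) in prefrontal cortex, higher in 13 of 14 animals, and the junction gene ESAM was higher by 0.77 (SE 0.135). SLC2A1, counted above with glycolysis, is also a gene of brain endothelium. Myelin and oligodendrocyte markers had 5 of 15 higher and 1 lower (median 0.39), with a summed value of 176500 to 592700 in occipital and 136000 to 556800 in prefrontal cortex. CNDP1, a carnosine-cleaving enzyme of oligodendrocytes, was higher in 14 of 14 animals (0.83, SE 0.090). A fit with the mean log2 level of the myelin markers as a covariate gave 3126 rows higher and 4801 lower. Precursor markers split, with PDGFRA lower (-0.60, SE 0.096) and SOX10 (0.36) and OLIG2 higher. Of these 8 markers 4 were lower and 2 higher (4 and 1 without animals 32 and 40). Microglial markers had 2 of 13 higher and 6 lower (median -0.23), with CX3CR1 lower in 14 of 14 animals (-0.59, SE 0.098). Astrocyte markers had 2 of 14 higher and 5 lower (median 0.00), among them ALDH1L1 higher (0.48) and SOX9 lower (-0.31). Beside these counts, 21.1% of all rows tested were higher and 29.8% lower. What these marker shifts contribute to the gene groups above was not tested.

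**Figure D4:**
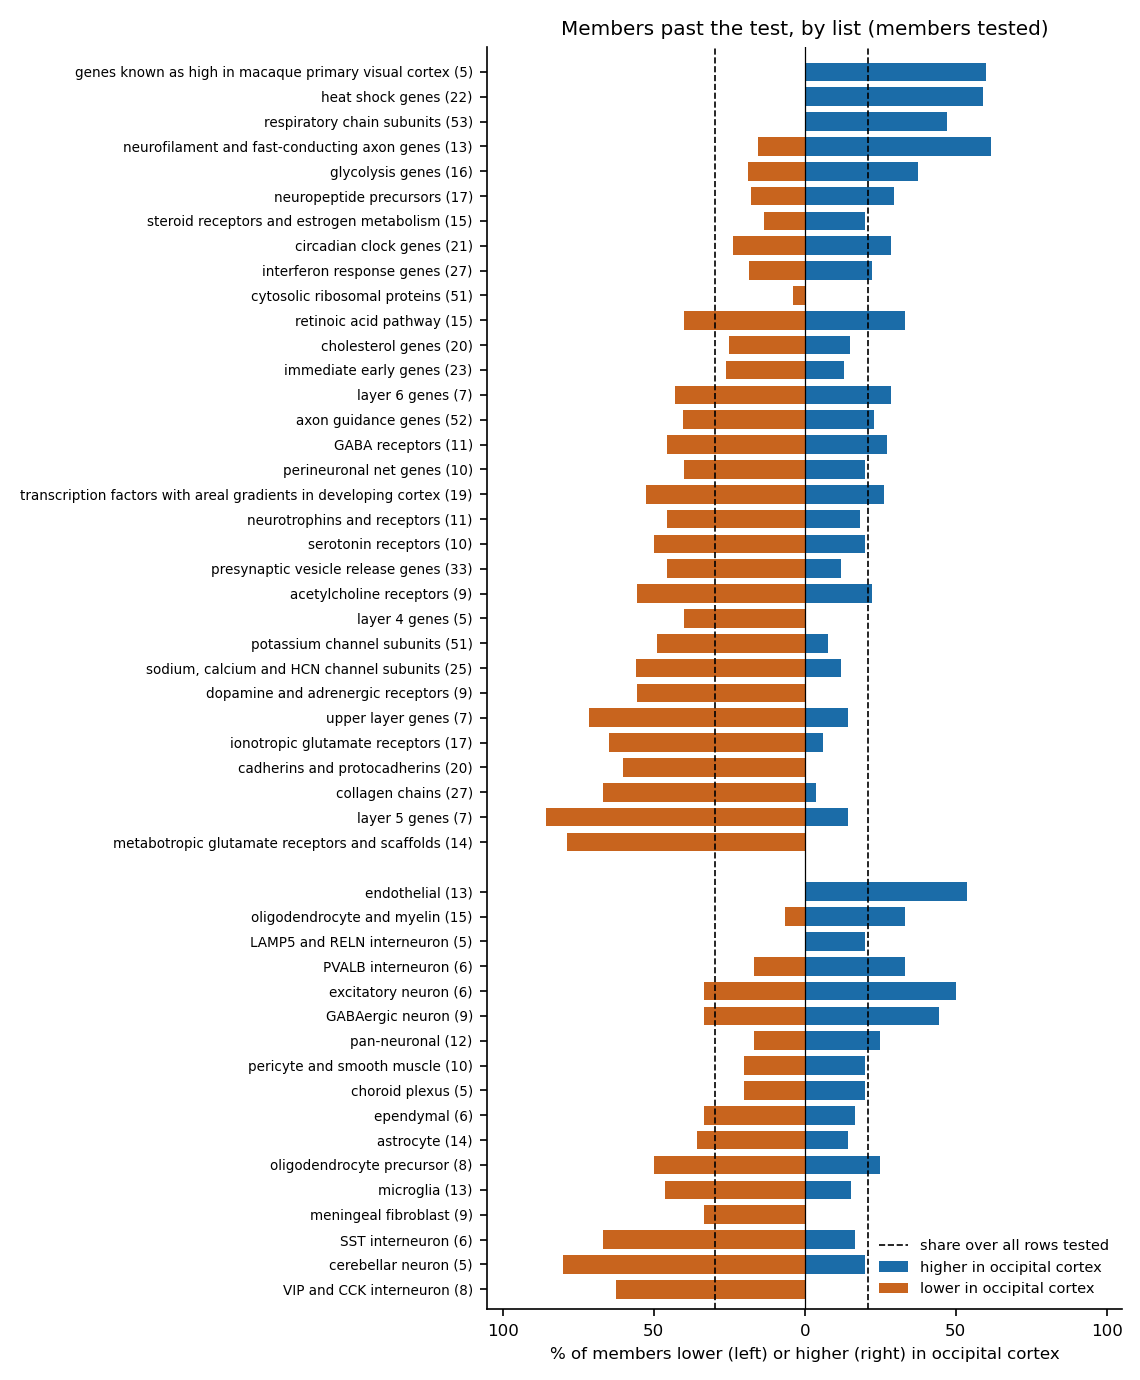
Percent of the members tested in each list (number in brackets) that were lower (orange, left) or higher (blue, right) in occipital cortex, with gene lists above and cell type lists below, for lists of at least 5 members; dashed lines give the shares over all rows, 29.8% lower and 21.1% higher. Respiratory chain, heat shock and endothelial lists have bars on the right only, and cadherin, metabotropic glutamate and VIP and CCK lists on the left only.

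The difference between the regions was next compared between the treatments. No row passed in the test of whether the difference differed between HT and OvH animals (0 of 16259 rows, 0%; smallest limma adjusted p = 1), and edgeR and DESeq2 also called 0. At an unadjusted p under 0.05 there were 80 rows (0.492%). That is below the share that a calibrated test gives at this threshold without any true difference. The reason was not tested. Tested alone, HT animals gave 1678 rows higher and 2967 lower in occipital cortex, and OvH animals 1823 higher and 2781 lower (n = 7 pairs each). Of the rows called in both, 3464 had the same direction and 0 the opposite. MET differed by 3.94 in HT and 3.95 in OvH animals, and NOX3 by 6.29 in HT and 5.48 in OvH animals. Across the 194 named genes the difference had the same sign in both treatments in 192, and 141 passed in each treatment alone. The largest gaps between treatments were -0.92 in MUC3A and 0.88 in BCL11B (HT minus OvH), neither past the test. A p that misses the threshold does not show that the treatments were alike.

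**Figure D5:**
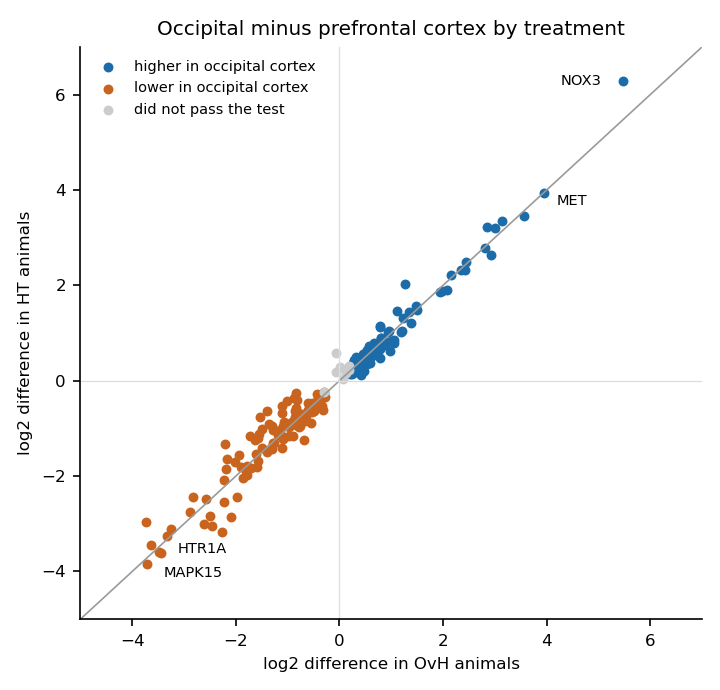
Log2 difference, occipital minus prefrontal cortex, in the 7 HT animals (y axis) against the 7 OvH animals (x axis) for the 194 named genes; the grey line marks equal differences, blue and orange genes passed the test over all animals and grey genes did not. The genes were chosen on both treatments together and lie along the line, with 192 of 194 on the same side of 0 in both.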

How the data were processed

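Messenger RNA was sequenced from 14 occipital and 14 prefrontal cortex samples with a stranded kit, per the labels' protocols. The signal values are read counts scaled to equal upper quartiles by the authors before they were deposited. The submitters' processing notes name Trimmomatic, STAR 2.7.3a, edgeR 3.28.0 and the build Mmul_10. The counting program, its annotation and its strand setting are not given in the sources used here. Undoing the scaling recovered whole reads for 100% of the deposited values (within 0.01 reads), 39.1 to 90.2 mega-reads per library; the upper quartile was 2818.9375 in each library.

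The 16259 of 17807 rows whose mean in these 28 libraries reached 10 were fitted on log2(value + 1) with limma 3.58.1 in R 4.3.3, with the animal as a block and an intensity trend. All p-values are two-sided, adjusted by Benjamini-Hochberg, with a threshold of 0.05. A term for region by treatment tested the difference between HT and OvH. Count tests with edgeR 4.0.16 and DESeq2 1.42.0 on the recovered reads, other filters and scalings, and fits without each animal were the alternatives. The limma fit was tested on simulated data. Pairing comes from the animal numbers in the labels; deviations from group means of the libraries of the same animal correlated at 0.103 to 0.681 (median 0.41), and 12 of 14 animals matched best with themselves. No replicate libraries were near copies (smallest chi-square per degree of freedom 35.7). Summed depth and totals were compared by permutation of signs within pairs.

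For the name limit, identifiers moved by 50 rows met it in 33.6% or 33.5% of rows, against 75.9% in place and 97.8% between hippocampus and cortex. Mean levels had a Spearman correlation across rows of 0.987 between occipital and prefrontal cortex and 0.535 between occipital cortex and amygdala; rows are not independent replicates. The deposited table gives Ensembl gene identifiers without symbols; a reference table of identifiers and symbols matched 15123 of the 17807. Of 1012 genes in 52 lists, 753 could be tested, 174 missed the limit, and 76 were not matched. Named genes are the 12 highest and 12 lowest differences (mean at least 100, passed, same direction in at least 13 of 14 animals), all nameable areal and layer genes, up to 2 members per direction with the smallest p in every other list, and ESR1, ESR2, PGR and GPER1; a few genes that the rule names are not reported here. The comparison, its gene lists and this rule were chosen with earlier results of these data known. Whether the occipital and prefrontal samples of an animal were handled in the same batch is not given in the sources used here. No genome or sequence table of the build was used, so sequences and coordinates are not given.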

Additional observations from a re-analysis of the deposited data

Results flagged for a closer look

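In groups of 7 animals, a value of 1 animal (its difference between the regions, or the total of a library) stood apart from the others (Dixon's 95% critical value) in 16 of 396 groups examined (4.04%). Chance flags about 1 in 20 groups, so the number of flags is below that share.

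Animal 40 (HT) was flagged 6 times: for SEMA3F (-0.32, against 1.5 to 2.15 in the other HT animals), SPOCK2 (-0.61, against 0.36 to 0.62), ENO2 (-0.33, against 0.30 to 0.73), SLC17A7 (-1.35, against -0.65 to -0.15), VAMP1 (0.68, against 1.19 to 1.46) and the normalised total of its occipital library (67.29 in mega-units, against 56.74 to 60.32). Animal 32 (OvH) was flagged for RASGRF2 (0.40, against -3.41 to -1.80 in the other OvH animals) and THSD7A (0.95, against -1.90 to -0.78). These are the animals whose libraries stand apart on the second principal component.

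Among the other HT animals, animal 37 stood apart for BDNF (0.57, against -1.65 to -0.82) and KCNH5 (-1.38, against 0.10 to 0.94), and animal 39 for C2CD4C (-1.28, against -3.87 to -2.89) and HBA (4.36, against -0.07 to 0.97). Among OvH animals, animal 33 stood apart for ADRA2C (-0.70, against -1.98 to -1.44) and MUC3A (-4.34, against -2.21 to -1.17), animal 30 for SLC2A1 (1.42, against 0.26 to 0.74) and animal 43 for NR4A3 (-2.0, against -1.23 to -0.78).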

How the results depend on the processing

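Of the 186 named genes that passed, 138 passed in all settings tried. The paired design mattered little for the counts: without the replicate block 3005 rows were higher and 4162 lower, and 12 named genes lost their call. Leaving out each animal in turn gave 3165 to 3574 rows higher and 4508 to 4974 lower. On recovered reads edgeR called 3932 higher and 4348 lower, and DESeq2 4201 and 4548. Counts moved by more than 1.5 times with 7 pairs, where fewer animals entered: HT animals alone gave 1678 higher and 2967 lower, and OvH animals alone 1823 and 2781. They also moved with fewer rows tested: rows with a mean of at least 100 gave 154 at least 2-fold higher and 610 at least 2-fold lower, and rows that met the name limit gave 161 at least 2-fold higher. The occipital minus prefrontal difference in normalised total was 1.29 mega-units over all 14 animals and did not pass (permutation p = 0.0992). It was 0.879 to 1.58 mega-units without single animals, and passed only without animal 42 (permutation p = 0.0461). Genes that turned sign had not passed: CHRM2 (-0.01 to 0.30 without single animals), KCNH5 (-0.02 to 0.17 without single animals, -0.07 without animals 32 and 40, a setting added after the data were seen, and -0.07 in OvH animals) and RORB (-0.06 in OvH animals). The cause of these sign changes was not tested. Leaving out single animals ended the call of ACTA2, CD74, SOX10, RPLP2, PGRMC1, PPP1R1B, CXCL14 and FDFT1, and of THSD7A and SCN8A named in the report; it gave CCN2 and PLCH1 a call. At these depths low genes such as ESR2 and LHX9 rest on few reads.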

Other observations

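The number of rows with at least 1 read differed between the regions. Occipital libraries had 16510 to 16640 such rows (median 16570) and prefrontal libraries 16620 to 16750 (median 16660). The count was lower in occipital cortex in 13 of 14 animals (mean difference -98.6 rows; two-sided exact permutation p = 2.44e-04), while reads per library did not differ beyond their spread (permutation p = 0.504).

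Ependymal markers, a list of 6 genes for the ciliated lining of the ventricles, had a summed value of 1468 to 2545 (median 1744) in occipital and 1682 to 2564 (median 2078) in prefrontal cortex. The sum was lower in occipital cortex in all 14 animals, but the genes did not shift as a class. Of the 6 genes 1 was higher and 2 were lower (median 0.02), beside 21.1% higher and 29.8% lower over all rows tested. CFAP43 weighs heavily in the sum, with 257 to 581 in occipital and 459 to 1003 in prefrontal cortex. The cilium gene CFAP43 was lower (log2 -1.09, SE 0.087; limma adjusted p = 1.27e-08), while CCDC39 was higher (0.59, SE 0.137; adjusted p = 0.00148). Of 10 pericyte and smooth muscle markers 2 were higher and 2 lower (median 0.17; 1 and 3 without animals 32 and 40). The smooth muscle gene CNN1 was higher by 0.63 (SE 0.165), and ACTA2 lost its call in 9 of the 14 fits without 1 animal. The pericyte genes PDGFRB (-0.56, SE 0.112) and ABCC9 (-1.25, SE 0.263) were lower.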
